A study of Mus musculus with 6 samples.

Results

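The miRNAs described here are 7 mature forms linked to inflammation: miR-21a-5p and its opposite arm miR-21a-3p, miR-146a-5p, miR-146b-5p, miR-155-5p, miR-132-3p and miR-212-5p. They were chosen by name, and all 7 were matched among the 620 miRNAs of the deposited table. The samples are small RNA of vesicles shed by mouse PBMCs, the mononuclear leukocytes of peripheral blood (lymphocytes with some monocytes), and all are labelled as wild type. The 3 control libraries came from vesicles of untreated cells, and the 3 IS libraries from vesicles of cells given a stimulus that the labels call IS without saying what it stands for. Dose, duration, age and sex are not given in the labels, nor whether each replicate is an animal or culture of its own, so the spread behind the p-values may be technical.

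A miRNA is cut from a hairpin that yields a 5p and a 3p arm, and usually 1 arm is loaded into an Argonaute protein as the guide while the other is degraded. Bases 2 to 8 of the guide, the seed, carry most of the pairing with target mRNAs. In monocytes and macrophages, NF-kB raises the transcription of miR-146a and miR-155. The former lowers TRAF6 and IRAK1 and so damps Toll-like receptor signalling, and the latter lowers SHIP1 and SOCS1 and so favours inflammatory activation. miR-21 is widely expressed, is raised by STAT3 and AP-1, and lowers PDCD4, while the miR-212 and miR-132 pair responds to CREB.

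The mature sequences are shown because the comparison of miR-146a with miR-146b, and of 1 arm with the other, rests on reads that differ by these letters. They are RefSeq sequences on build GRCm38.p6, written 5′ to 3′ with the seed in capitals.
miR-21a-5p: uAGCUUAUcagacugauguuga
miR-21a-3p: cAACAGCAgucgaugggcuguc
miR-146a-5p: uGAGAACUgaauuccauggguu
miR-146b-5p: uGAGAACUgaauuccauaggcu
miR-155-5p: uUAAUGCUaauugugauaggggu
miR-132-3p: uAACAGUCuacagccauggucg
miR-132-5p: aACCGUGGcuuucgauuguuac
miR-212-5p: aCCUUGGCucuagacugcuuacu
miR-212-3p: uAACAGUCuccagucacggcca

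Among the 7, only miR-146a-5p and miR-146b-5p share a seed, GAGAACU. Their 22 bases differ by G18A and U21C (miR-146a first, positions counted from the 5′ end), so the first 17 bases are identical and a read that ends there cannot be told apart. miR-132-3p and miR-212-3p also share a seed, but the member of the miR-212 hairpin is its 5p arm, with the seed CCUUGGC. The opposite arms miR-132-5p and miR-212-3p are no members and are shown for the comparison of arms.

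Of the 6 hairpins, 4 lie on chromosome 11 of GRCm38, at the same positions in RefSeq and GENCODE. Mir21a (86584067 to 86584158, minus strand) lies within the 3′ UTR of Vmp1, and Mir146, the hairpin of miR-146a (43374397 to 43374461, minus strand), overlaps no other annotated gene. Mir212 (75173388 to 75173478) and Mir132 (75173682 to 75173747) lie 203 bases apart on the plus strand, in an intron of the non-coding gene 1700016P03Rik. Mir155 lies in an exon of its host transcript Mir155hg on chromosome 16 (84714140 to 84714204, plus strand), and Mir146b in an intron of Mfsd13a on chromosome 19 (46342762 to 46342870, plus strand). The build used by the authors is not given in the sources used here.

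Library totals ran from 125731 counts (IS 3) to 435468 (control 3), so 1 count was worth 2.30 to 7.95 CPM (counts per 1000000 counts of its library). The floor used here, 3 counts, was worth 6.89 to 23.9 CPM. The 6 leukocyte marker miRNAs that were listed, miR-142a, miR-150, miR-223 and miR-342 arms, were detected in all 6 libraries and took 0.617 to 2.65% of the counts. The neutrophil and monocyte miRNA miR-223-3p was low, at 18.9 to 254.5 CPM. The 5 red cell markers, with nearly the same counts in both rows of miR-486a, took 13.0 to 29.9%, and the 2 liver markers 2.35 to 11.3%. Whether the 2 rows of miR-486a hold the same reads, which would inflate the red cell share, was not tested. Control 3 and IS 2 stood apart from the other libraries, with the highest leukocyte share (2.20 and 2.65%) and the highest red cell share (24.9 and 29.9%). Most of that leukocyte share was miR-142a-5p (20128 and 23909 CPM there, 4953 to 10757 CPM elsewhere). miR-142a-3p (733 and 1106 CPM, 281 to 422 CPM elsewhere) and miR-150-5p (836 and 1094 CPM, 92.5 to 429 CPM elsewhere) were highest there too. In contrast, miR-223-3p was lowest in IS 2 and miR-342-3p lowest in control 3 (89.6 CPM). The same 2 libraries had the lowest share of the endothelial and platelet miR-126a arms (0.905 and 0.483%, against 1.34 to 2.65%) and the 2 largest totals. The liver share divided the libraries in another way. It was highest in control 1 and IS 1 (11.3 and 10.7%, against 2.35 to 4.59% elsewhere).

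miR-21a-5p, the oncogenic and profibrotic miRNA, was by far the most abundant of the 7 and stood in place 12 of 620 by mean level. Its level was 28642, 55196 and 38141 CPM in control 1, 2 and 3, from 7743, 12984 and 16609 counts. In IS 1, 2 and 3 it was 23143, 14137 and 46623 CPM, from 3453, 4486 and 5862 counts. Control 2 and IS 3 were the highest and IS 2 the lowest, and the groups overlapped, since IS 3 lay above 2 of the 3 control libraries. The group means were 40660 ± 13455 CPM in control and 27968 ± 16772 CPM in IS (SD, n = 3 per group). In bulk vesicle RNA, fewer vesicles of a cell type and less of a miRNA per vesicle cannot be told apart.

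Whether vesicle miRNAs differed after IS stimulation was tested with the edgeR quasi-likelihood fit over the whole table, and 206 miRNAs, 4 of the 7 among them, passed its filter on low counts. At an adjusted p under 0.05 it called 0 of the 206 (0.0%, with 1.46% at an unadjusted p under 0.05), and 0 of the 4 members at either threshold. DESeq2 also called 0, with 14 of 618 miRNAs below 0.05 before adjustment. The log2 fold change of miR-21a-5p, IS minus control, was -0.57 (SE 0.50, 95% confidence interval -1.68 to 0.55, adjusted p = 0.996, edgeR). It was below 0 under all 15 other settings, from -1.34 without IS 3 to -0.31 without IS 2. Counting error was small beside this spread: the 7743 counts of control 1 have an exact 95% Poisson interval of 7571 to 7917, while the highest library had 3.90 times the level of the lowest. Such intervals cover counting error only, since the reads carry no molecular identifiers.

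**Figure D1:**
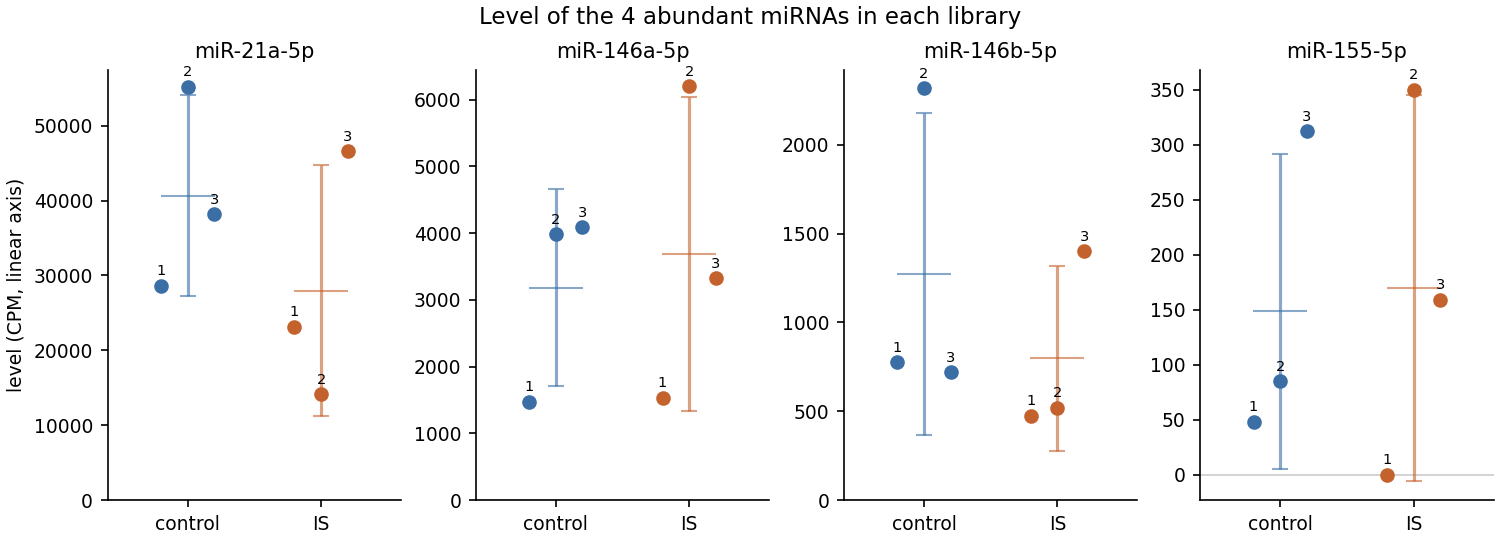
Level in CPM on a linear axis of miR-21a-5p, miR-146a-5p, miR-146b-5p and miR-155-5p in each control and IS library; points are libraries with their replicate number, horizontal bars the mean and vertical bars the SD (n = 3 per group). The groups overlap in every panel, and control 2 and IS 3 are the highest libraries of their group for miR-21a-5p and miR-146b-5p, whereas control 3 and IS 2 are for miR-146a-5p and miR-155-5p.

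miR-146a-5p, the brake on Toll-like receptor signalling, stood in place 29 of 620. Its level was 1476, 3979 and 4092 CPM in control 1, 2 and 3 and 1535, 6196 and 3325 CPM in IS 1, 2 and 3. Replicate 1 of each group was low, IS 2 was the highest, and the groups overlapped. The means were 3182 ± 1479 CPM in control and 3685 ± 2351 CPM in IS (n = 3 per group). Its log2 fold change was 0.29 (SE 0.58, interval -0.99 to 1.57, edgeR adjusted p = 0.996), and the sign turned without control 1 (-0.25), without IS 2 (-0.45) and without both control 3 and IS 2 (-0.35).

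miR-146b-5p, which has the same seed and is transcribed from another chromosome, was lower, in place 59. Its level was 776.8, 2317 and 721 CPM in control 1, 2 and 3 and 476, 520.0 and 1400 CPM in IS 1, 2 and 3. Control 2 and IS 3 were high, as for miR-21a-5p, and the other 4 libraries lay between 476 and 776.8 CPM. The means were 1272 ± 906 CPM in control and 799 ± 521 CPM in IS (n = 3 per group). The log2 fold change was -0.72 (SE 0.60, interval -2.04 to 0.61, edgeR adjusted p = 0.996), below 0 under all 15 other settings and from -1.53 without IS 3 to -0.28 without control 2.

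The ratio of miR-146a-5p to miR-146b-5p is taken within a library and needs no scaling between libraries. There were 1.90, 1.72 and 5.68 counts of miR-146a-5p for each of miR-146b-5p in control 1, 2 and 3. In IS 1, 2 and 3 there were 3.23, 11.9 and 2.38. miR-146a-5p was thus the more abundant form in all 6 libraries. Control 3 and IS 2 had the highest ratios, with 95% intervals (exact Clopper-Pearson) of 5.03 to 6.42 and 10.2 to 14.1, above those of the other 4 libraries, whose highest upper bound was 4.27 (IS 1). These 2 libraries also had the highest miR-142a-5p, miR-142a-3p and miR-150-5p levels and the highest red cell shares. Their miR-126a shares were the lowest and their totals the largest (435468 and 317323 counts). They did not have the highest miR-223-3p, miR-342-3p or miR-342-5p, and the part of these traits in the ratio was not tested.

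The mean log2 ratio was 1.40 ± 0.96 in control and 2.17 ± 1.24 in IS (SD, n = 3 per group), a difference of 0.76. It was smaller than the spread between the libraries of a group (exact two-sided permutation p = 0.5, adjusted p = 0.5 over the 2 ratios tested, with 0.1 the smallest p that 3 libraries against 3 allow). Without IS 2 the difference was 0.062, without control 3 it was 1.31, and without both it was 0.61. How reads shared by the 2 forms were counted is not given. The sum of the 2 forms, which share the seed GAGAACU, was 2253, 6296 and 4813 CPM in control 1, 2 and 3. In IS 1, 2 and 3 it was 2011, 6716 and 4724 CPM. Its group means were 4454 ± 2045 and 4484 ± 2362 CPM. Libraries with similar sums differed in which form supplied it, as miR-146a-5p made up 63.2% of the sum in control 2 and 92.3% in IS 2.

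**Figure D2:**
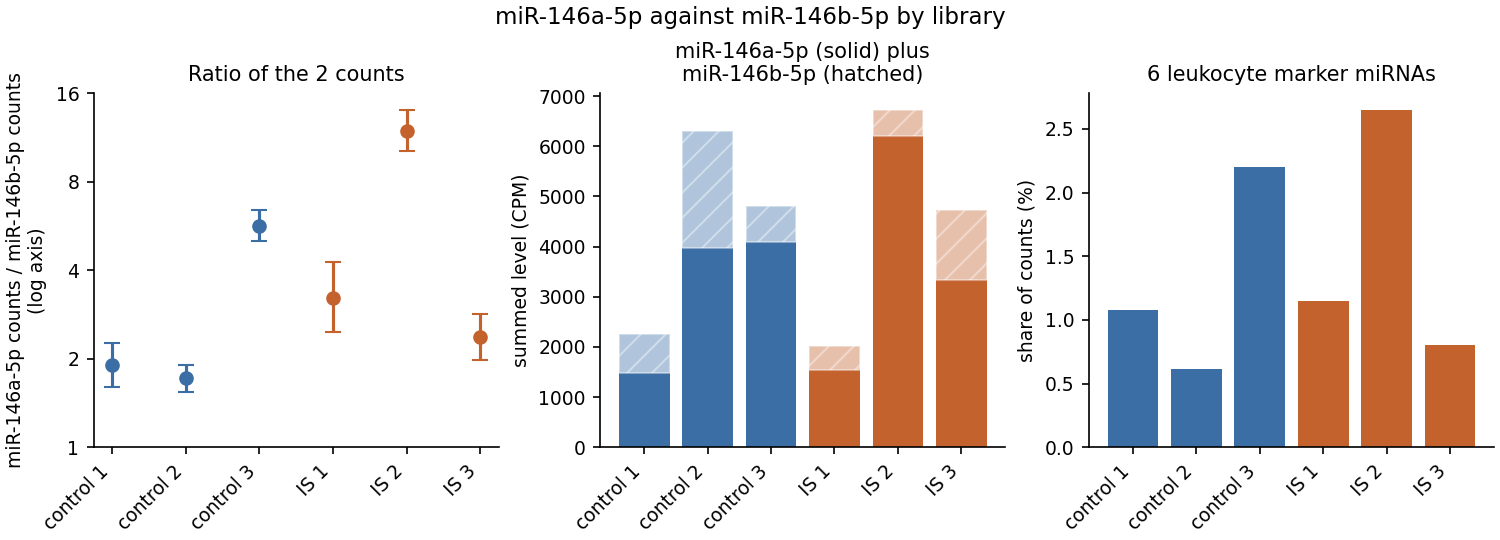
Left, counts of miR-146a-5p divided by counts of miR-146b-5p in each library on a log axis, with exact 95% intervals; middle, their summed level in CPM (solid, miR-146a-5p; hatched, miR-146b-5p); right, share of all counts (%) in 6 leukocyte marker miRNAs. Blue marks control and orange IS libraries. The ratio is highest in IS 2 (11.9) and control 3 (5.68), the libraries with the highest summed share, which is mostly miR-142a-5p.

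miR-155-5p, the NF-kB-induced miRNA of activated macrophages and lymphocytes, was the least abundant of the 4 that were tested, in place 122. Its level was 48.1, 85.0 and 312 CPM in control 1, 2 and 3, from 13, 20 and 136 counts. In IS 1 it was not detected (0 of 149202 counts, for which the floor of 3 counts is 20.1 CPM), and in IS 2 and 3 it was 349.8 and 159 CPM, from 111 and 20 counts. Control 3 and IS 2 were again the highest, IS 1 was the lowest, and the groups overlapped. IS 2 was at least 17.4-fold higher than IS 1, taking the floor of 3 counts in IS 1.

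The mean of miR-155-5p was 148 ± 143 CPM in control and 169.6 ± 175 CPM in IS (n = 3 per group). Its log2 fold change of 0.28 had the widest interval of the 4 (SE 1.18, -2.33 to 2.89, edgeR adjusted p = 0.996), and 7 of the 15 other settings gave a value below 0. It was 1.34 without control 3, -1.10 without IS 2 and -0.091 without both. Set against miR-146a-5p in the same library, there were 3.26, 2.14 and 7.63 counts of miR-155-5p for every 100 of miR-146a-5p in control 1, 2 and 3. In IS 2 and 3 there were 5.65 and 4.78, and in IS 1 0 counts stood beside 229 of miR-146a-5p. The opposite arm miR-155-3p had 6 counts in control 3, 1 in IS 2, 3 in IS 3 and 0 in the others. Over all 6 libraries it made up 10 of the 310 counts of this hairpin, or 3.23% (exact 95% interval 1.56 to 5.85%).

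The arms of miR-21a were far more uneven. miR-21a-3p, which has regulatory roles of its own in heart fibroblasts, was counted 2 times each in control 3 and in IS 2, and 0 times elsewhere. Every library was thus below the floor, and the groups are not compared by a fold. Within libraries, miR-21a-5p was at least 2581-fold (control 1), 4328-fold (control 2), 1151-fold (IS 1) and 1954-fold (IS 3) higher than its opposite arm, taken at the floor. In control 3 and IS 2 the ratios were 8305 (exact 95% interval 2299 to 68579) and 2243 (621 to 18527), intervals that overlap widely. Pooled over the 6 libraries, 4 of 51141 counts of the hairpin came from the 3p arm, or 0.0078% (0.0021 to 0.020%).

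Compared with other hairpins, this balance was among the most uneven. The ratio of the larger to the smaller arm, with 0.5 added to both counts, was ranked over 45 miRNA names. These had both arms in the table and 1000 or more counts in the larger one. miR-21a was in place 4, after miR-122b, miR-122 and let-7g. The summed counts of miR-122b and miR-122 are the same with the arms swapped, and whether they are the same reads was not tested. miR-146a, with 5730 counts of the 5p and 1 of the 3p arm, was in place 7 by the same measure. Down to place 4 the smaller arm had only 4 or 5 counts over the 6 libraries, so the order there follows the count of the larger arm. The group difference in the log2 ratio of the miR-21a arms, with 0.5 added to both counts, was -1.40, with 13.8 ± 0.99 for the control libraries and 12.4 ± 1.40 for the IS libraries (SD, n = 3 each). An exact permutation test, two-sided, gave p = 0.3 (adjusted p = 0.5). In the 4 libraries with 0 counts of the 3p arm this value is set by the count of the 5p arm alone. It thus reflects the level of miR-21a-5p and the depth of the library, not a measured balance of arms.

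The 2 members from the Mir212 and Mir132 hairpins were at the edge of detection. miR-132-3p, the usual guide of its hairpin and a CREB-induced miRNA of neurons and monocytes, was counted 11 times in control 3 (25.3 CPM), 2 times in IS 2 and 0 times elsewhere. miR-212-5p had 5 counts (11.5 CPM) in control 3, 1 in IS 2, 1 in IS 3 and 0 in the others. Only control 3, the deepest library, held 3 or more counts of either. Thinned to the 125731 counts of IS 3, control 3 would be left with 3.18 counts of miR-132-3p and 1.44 of miR-212-5p on average, and would show 1 or more with probabilities of 0.976 and 0.818. Neither was tested between the groups, and at this depth a difference was not detectable.

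For Mir132 the arm usually degraded was seen in more libraries than the guide. miR-132-5p was counted 0, 1 and 8 times in control 1, 2 and 3 and 4, 2 and 10 times in IS 1, 2 and 3. In IS 1 and IS 3 it was present at 4 and 10 counts with 0 of miR-132-3p, while control 3 had 8 of the 5p and 11 of the 3p arm. Over all libraries 25 of the 38 reads of the hairpin, or 65.8%, came from the 5p arm (exact 95% interval 48.6 to 80.4%). That interval includes an even split, pools libraries whose shares differ, and covers counting error only. From Mir212, 7 reads came from the 5p and 1 from the 3p arm. All 7 miRNAs were detected in control 3 and IS 2, 5 in IS 3, 4 in control 1 and control 2 and 3 in IS 1.

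**Figure D3:**
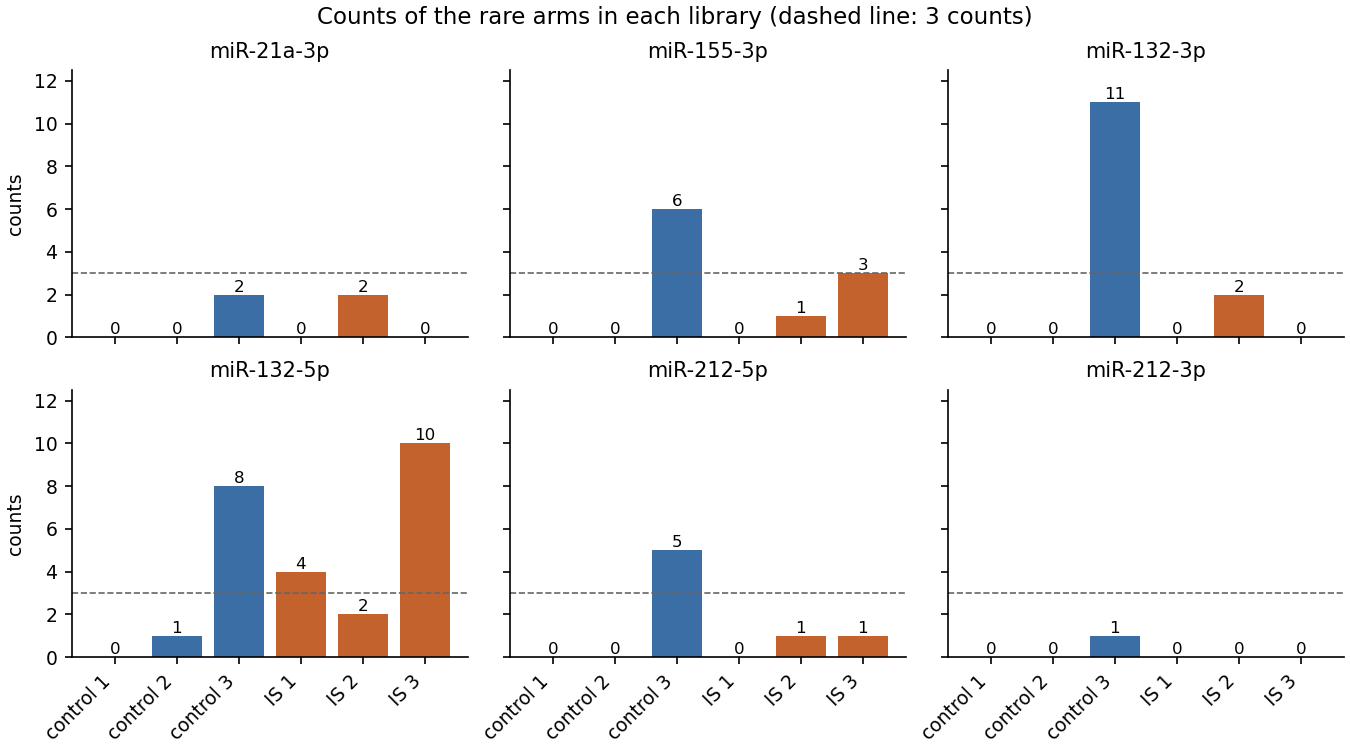
Counts of miR-21a-3p, miR-155-3p, miR-132-3p, miR-132-5p, miR-212-5p and miR-212-3p in each control (blue) and IS (orange) library, with the floor of 3 counts as a dashed line. miR-132-3p and miR-212-5p rise above the floor only in control 3 (11 and 5 counts), whereas miR-132-5p does so in control 3, IS 1 and IS 3 (8, 4 and 10 counts).

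The 4 tested miRNAs did not vary as 1 group across the libraries. As a measure of likeness, the root mean square difference between profiles of log2(CPM + 1), each centred on its own mean, was taken over the 6 libraries. Between miR-21a-5p and miR-146b-5p it was 0.41, against a median of 0.97 between miR-21a-5p and all other tested miRNAs. Between miR-146a-5p and miR-146b-5p it was 0.98, although they share a seed, against a median of 1.06 for miR-146a-5p. For miR-155-5p, whose value in IS 1 was 0, it was 2.33 to miR-146a-5p, 2.72 to miR-146b-5p and 2.85 to miR-21a-5p, against a median of 2.85 to all other tested miRNAs.

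The miRNAs closest to miR-21a-5p by this measure were miR-27b-3p (0.33) and miR-3074-5p and miR-24-3p (both 0.36), the last 2 with nearly identical counts. Closest to miR-146b-5p were miR-30d-5p (0.28), miR-222-3p (0.32) and let-7a-5p (0.40), all with their highest values in control 2 and IS 3. Closest to miR-146a-5p were miR-185-5p, miR-29a-3p and miR-199a-5p (0.37 each), and to miR-155-5p miR-542-3p and miR-369-3p (both 0.72) and let-7a-1-3p (1.03), which all had 0 counts in IS 1. Over the 206 tested miRNAs the range of log2(CPM + 1) across the 6 libraries had a median of 2.30. It was 1.97 for miR-21a-5p, 2.07 for miR-146a-5p, 2.28 for miR-146b-5p and 8.45 for miR-155-5p. The value of miR-155-5p is set by the 0 counts in IS 1 and the 1 that was added. With IS 1 taken at the floor of 3 counts, its highest library was at least 17.4-fold above its lowest.

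Of 14 other miRNAs linked to NF-kB signalling or monocyte activation, 13 were matched to a row and 8 were tested. Of these 8, 4 had a log2 fold change above 0 and 4 below, 0 passed the edgeR threshold (0 also at an unadjusted p under 0.05, and 0 with DESeq2), and the median was 0.025, against 0.022 over all 206. The smallest unadjusted p belonged to miR-222-3p, which lowers the cell cycle inhibitor p27, with a log2 fold change of -0.88 (SE 0.68, edgeR adjusted p = 0.996). Its level was 795, 4111 and 705 CPM in control 1, 2 and 3 and 617, 832 and 1607 CPM in IS 1, 2 and 3. Its cluster partner miR-221-3p was 1417, 1343 and 3835 CPM in control and 1173, 6924 and 1304 CPM in the IS libraries, with a log2 fold change of 0.62 (SE 0.75), and the macrophage miRNA miR-125b-5p, which lowers TNF, was 74.0, 21.3 and 165 CPM in control and 67.0, 129 and 231 CPM in IS (0.65, SE 0.89). None of these 3 had groups that did not overlap, as 1.46% of all tested miRNAs did, and neither did any of the 7.

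**Figure D4:**
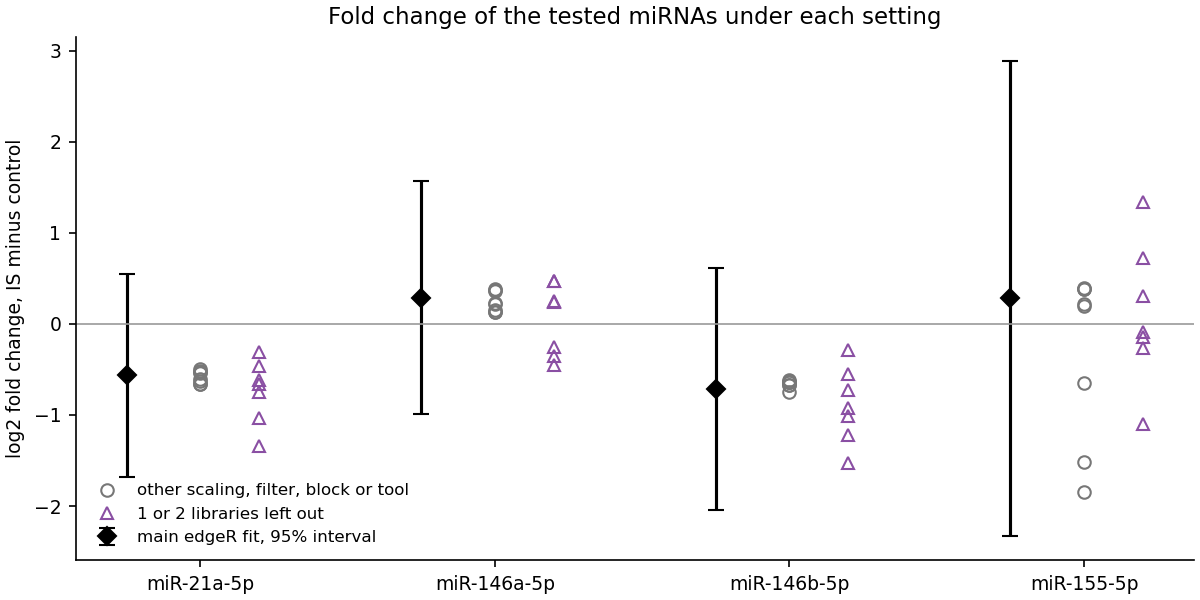
Log2 fold change (IS minus control) of the 4 tested miRNAs: diamonds, main edgeR fit with its 95% interval; circles, another scaling, filter, replicate block or tool; triangles, 1 or 2 libraries left out. The values of miR-21a-5p and miR-146b-5p lie below 0 in every setting, and their intervals from the main fit include 0. The values of miR-155-5p range from -1.85 to 1.34.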

How the data were processed

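The authors deposited 1 table with 2 values per miRNA and library, a read count and a TPM, per the file headers. The deposited TPM is each count scaled to a library total of 1000000 (largest difference 4.8e-10), with no length in it, and is called CPM here. The submitters' processing notes name Bowtie and CASAVA 1.8 but no role for them. Not given in the sources used here are the miRBase release, the filters, the mismatches allowed and the treatment of reads shared by similar miRNAs. RNA was purified with an exoRNeasy kit and libraries were made with a NEBNext small RNA kit, per the labels' protocols.

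Counts were tested with edgeR 4.0.16 in R 4.3.3 (TMM factors, filterByExpr with minimum count 10 and minimum total 15, quasi-likelihood F test, group as the only term, Benjamini-Hochberg adjustment over 206 miRNAs holding 99.7% of the counts). The SE was the size of the log2 fold change divided by the square root of F. Ratios within libraries used exact permutation tests over 20 assignments. Of the members with 50 or more counts, 0 had a repeated row (within 2 counts or 6% in every library). Sequences and positions came from RefSeq and GENCODE. Alternatives used DESeq2 1.42.0 and limma 3.58.1. The edgeR script was tested on simulated data. Named were all members, their opposite arms, the 3 companions of smallest p, other companions by their counts, and the 3 nearest profiles of each tested member. The members and lists were chosen with earlier results of these data known.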

Additional observations from a re-analysis of the deposited data

How the results depend on the processing

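Past the edgeR threshold there were 0 miRNAs, also with DESeq2, limma, RLE scaling, unscaled totals, the other filter (10 CPM in 3 libraries) or none, an adjusted p of 0.1 and each library left out, and 3 at an unadjusted p under 0.05. The count in the companion list was 0 throughout. The log2 fold change of miR-146a-5p ranged from -0.45 to 0.47 with a library left out. That of miR-155-5p ranged from -1.10 to 1.34 with a library left out, and was -1.52 with limma on log2(TPM + 1) and -1.85 with limma on log2(TPM + 0.5), where the 0 in IS 1 enters on the log scale. Leaving out both control 3 and IS 2 was added after the data were seen. It gave 0 miRNAs past the threshold, -0.35 for miR-146a-5p and -0.091 for miR-155-5p. Over all tested miRNAs the median was 0.022, and it moved to between -0.27 and 0.050 when a library was dropped and the fit repeated. With the replicate number as a block, the log2 fold change of miR-155-5p was -0.65, the count past the threshold stayed 0, and no other tested member changed sign. The difference in the miR-146 ratio was 0.76 with the pairing (higher in IS in 2 of 3 pairs, exact sign-flip p = 0.75). The labels tie the numbers to no shared animal or day. Deviations of same-numbered libraries correlated at 0.342, -0.379 and -0.126, and those of differently numbered ones at -0.391 to 0.566. So few values cannot show whether same-numbered libraries were paired. Libraries with 3 or more counts, and with 5 or more, numbered 0 for miR-21a-3p, 1 for miR-132-3p and 1 for miR-212-5p, against 2, 2 and 3 with any count. Thinned to the smallest total, 1.13 libraries would on average hold miR-21a-3p, 1.61 miR-132-3p and 2.21 miR-212-5p.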

Other observations

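The pair miR-221-3p and miR-222-3p, which come from 1 cluster on the X chromosome and share the seed GCUACAU, divided between the libraries in nearly the same order as miR-146a-5p and miR-146b-5p. This comparison was chosen after the values had been seen.
miR-221-3p: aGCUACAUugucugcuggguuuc
miR-222-3p: aGCUACAUcuggcuacugggucu
There were 1.78, 0.327 and 5.44 counts of miR-221-3p for each of miR-222-3p in control 1, 2 and 3, and 1.90, 8.32 and 0.812 in IS 1, 2 and 3. IS 2 and control 3 had the highest ratios and control 2 the lowest for both pairs, while control 1 and IS 3 changed places. The order is a description of 6 libraries and was not tested.

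Among the companions that did not pass the filter on low counts, the hypoxia miRNA miR-210-3p was concentrated in control 3 and IS 2. It had 6, 0 and 50 counts in control 1, 2 and 3 and 0, 81 and 1 in IS 1, 2 and 3. The p53 target miR-34a-5p had 11 counts in control 3 and 0 in the other 5 libraries. miR-147-3p, a Toll-like receptor-induced miRNA of macrophages, had 11, 0 and 15 counts in control and 1, 0 and 13 in IS. miR-31-5p had 4, 0 and 12 counts in control and 1, 9 and 0 in IS, and miR-187-3p, an IL-10-induced miRNA of monocytes, had 1 in control 1, 4 in IS 3 and 0 in the others.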
